A study of Mus musculus with 12 samples.

Results

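Trib1, Trib2 and Trib3 encode the mammalian Tribbles pseudokinases, and Cebpa, Cebpb and Cebpd encode 3 CCAAT/enhancer-binding proteins (C/EBPs). These 6 genes were taken by symbol from the 52550 genes of the count table and are described in all 12 libraries. The genes were chosen by the brown-fat value of Trib1, which was lower in knockout mice, and because the Trib1 protein directs C/EBP degradation. In that comparison the values of all 6 genes are given as a description, with no test, and so are the values of Trib1 in the comparisons of brown with white fat.

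Tribbles proteins have a kinase fold but little or no catalytic activity. They act as scaffolds that bring a substrate to the E3 ubiquitin ligase COP1, and C/EBPα is the best studied substrate of Trib1 and Trib2. C/EBP factors are basic leucine zipper (bZIP) transcription factors. In the cultured preadipocyte model of fat formation C/EBPβ and C/EBPδ come up early, and C/EBPα follows and keeps adipocyte genes active together with PPARγ. RNA levels do not show how much C/EBP protein is present.

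Brown fat (BAT) and inguinal white fat (WAT) were sampled in 4 groups of 3 libraries each: BAT AKO, BAT control, WAT AKO and WAT control. AKO mice were Mcu fl/fl animals with an adipose tissue-specific knockout of Mcu, the pore subunit of the mitochondrial calcium uniporter, made with CRISPR/Cas9, and controls were Mcu fl/fl mice. All groups share the floxed Mcu alleles, and the series' design text places AKO mice and controls on a high-fat diet. Neither the promoter that drives the deletion nor the sex or age of the mice is named in the labels. The labels number the libraries as replicates without tying each to its own animal, so a p-value here reflects spread among libraries that may be technical.

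Library totals ran from 15692588 to 18967159 counts. Levels are given in CPM, counts scaled to a common library size, with TMM factors over the 12 libraries, as mean ± SD with n = 3 in each group. Mcu measured 10.8 ± 3.34 CPM in BAT AKO against 26.5 ± 2.43 CPM in BAT controls, and 11.2 ± 1.21 CPM in WAT AKO against 18.5 ± 0.455 CPM in WAT controls. Groups did not overlap in either depot, as for 19.7% of genes in BAT and 30.4% in WAT. The quasi-likelihood test of edgeR over all genes missed its threshold for Mcu (adjusted p = 0.202 in BAT and 0.0799 in WAT). DESeq2 called it in each depot (adjusted p = 1.51e-05 and 0.000558). The 6 brown adipocyte markers, Ucp1 among them, took 0.571% to 0.706% of counts in BAT AKO and 0.556% to 0.638% in BAT controls, against 0.00391% to 0.00627% in WAT AKO and 0.00208% to 0.00524% in WAT controls. Skeletal muscle markers were uneven within groups. They reached 1.35% of counts in BAT AKO 2, 1.99% in WAT AKO 2 and 1.14% in WAT control 1, and stayed at or under 0.282% elsewhere.

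Trib1 (ENSMUSG00000032501) lies on the plus strand of chromosome 15 (59648350 to 59657099, mm10), Trib2 (ENSMUSG00000020601) on the minus strand of chromosome 12 (15791727 to 15816922) and Trib3 (ENSMUSG00000032715) on the minus strand of chromosome 2 (152337422 to 152344032). Cebpa (ENSMUSG00000034957) lies on the plus strand of chromosome 7 (35119293 to 35121928), Cebpb (ENSMUSG00000056501) on the plus strand of chromosome 2 (167688915 to 167690418) and Cebpd (ENSMUSG00000071637) on the plus strand of chromosome 16 (15887286 to 15891031). Tribbles genes have no annotated exon overlap with another gene. Each C/EBP gene shares exon bases with a gene on the opposite strand: Cebpa 51 bases with Gm45091, Cebpb 312 with Tmem189 and Cebpd 562 with Spidr. How strand was treated in the counting is unstated, so reads in these stretches cannot be told apart.

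RefSeq start-site windows on GRCm38.p6, reaching 250 bases before to 50 bases after the annotated start, were at hand for 4 of the 6 genes. Trib1 and Cebpd had no entry. The windows of Trib3, Cebpa and Cebpb are shown because these are the members with a window whose level differed between depots in a comparison described below. They span chr2:152344011-152344310, minus strand; chr7:35119043-35119342, plus strand; and chr2:167688665-167688964, plus strand, and read 5′ to 3′ on the gene's strand. Capitals mark matches, on either strand, to 5 motifs: the C/EBP dimer motif TTGCNNAA, the CCAAT box, the core CRE motif TGACG, the composite C/EBP-ATF motif TGATGNAA and the TATA box TATAAA.
Trib3: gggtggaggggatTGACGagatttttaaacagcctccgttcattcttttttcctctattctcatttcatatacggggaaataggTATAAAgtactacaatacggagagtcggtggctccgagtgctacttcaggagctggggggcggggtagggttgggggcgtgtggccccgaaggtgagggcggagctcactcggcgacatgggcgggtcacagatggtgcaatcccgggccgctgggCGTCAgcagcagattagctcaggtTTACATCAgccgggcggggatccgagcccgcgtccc
Cebpa: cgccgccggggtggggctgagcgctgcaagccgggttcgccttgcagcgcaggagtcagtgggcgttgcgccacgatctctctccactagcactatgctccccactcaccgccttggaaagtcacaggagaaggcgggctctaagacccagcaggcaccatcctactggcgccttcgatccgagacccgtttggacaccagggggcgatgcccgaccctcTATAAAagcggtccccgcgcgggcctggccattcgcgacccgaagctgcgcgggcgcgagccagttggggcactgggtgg
Cebpb: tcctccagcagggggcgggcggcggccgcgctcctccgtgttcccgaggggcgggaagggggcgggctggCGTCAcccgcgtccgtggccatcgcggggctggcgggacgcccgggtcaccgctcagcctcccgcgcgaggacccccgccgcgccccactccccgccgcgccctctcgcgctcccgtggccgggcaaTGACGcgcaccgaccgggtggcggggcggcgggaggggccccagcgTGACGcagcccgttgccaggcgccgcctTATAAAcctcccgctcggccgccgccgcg
Trib3 holds the composite motif (TTACATCA on the shown strand, bases 265 to 272), which 3.97% of 32851 such windows in the genome hold. This kind of element is known from stress-induced genes. Trib3 also holds CRE core motifs at bases 14 to 18 and 241 to 245 and a TATA box string at bases 85 to 90. Cebpb holds 3 CRE core motifs, at bases 71 to 75, 198 to 202 and 244 to 248, and a TATA box string at bases 272 to 277. A CRE core motif, only a part of the full CRE, is found in 20.8% of all windows and the TATA box in 13.6%. The window of Cebpa holds the TATA box alone of the 5, at bases 221 to 226. Relative to the annotated start these TATA box strings begin at −166 in Trib3, −30 in Cebpa and 21, after the start, in Cebpb. No match to the C/EBP dimer motif or the CCAAT box, which 10.8% and 37.4% of windows hold, lies in these 3 windows, and matches did not overlap each other. In the window of Trib2 none of the 5 motifs matched. A match is a string of letters, not a measured binding site. Only exact strings were searched, so a missing match does not show that a site is absent. Near matches, such as ttgcgcca in the Cebpa window, close to the C/EBP dimer motif, are not marked.

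Levels of different genes can be compared only per length, for which the deposited FPKM values (reads scaled to gene length and library total, without TMM) serve. Cebpa was the most abundant member in each group, with a mean of 361 ± 23.5 FPKM in BAT AKO, 315 ± 37.6 in BAT controls, 324 ± 45.2 in WAT AKO and 346 ± 84.8 in WAT controls. Cebpb came next, with 66.5 ± 9.26 FPKM in BAT AKO, 54.7 ± 8.59 in BAT controls, 19.5 ± 4.44 in WAT AKO and 21.8 ± 2.52 in WAT controls. In WAT, Cebpd followed, at 14.2 ± 6.64 FPKM in AKO and 12.6 ± 3.15 in controls, and in BAT it was the lowest of the 6, at 1.76 ± 0.321 and 2.76 ± 0.252 FPKM. This order is that of the means, and in WAT AKO 1 Cebpd, at 21.6 FPKM, lay above Cebpb, at 15.9 FPKM. The Tribbles genes lay between 5.39 and 8.52 FPKM in mean level in every group with 1 exception, Trib1 in BAT controls at 17.5 ± 1.93 FPKM. Their order in the other groups was not separated by the spread between libraries.

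**Figure D1:**
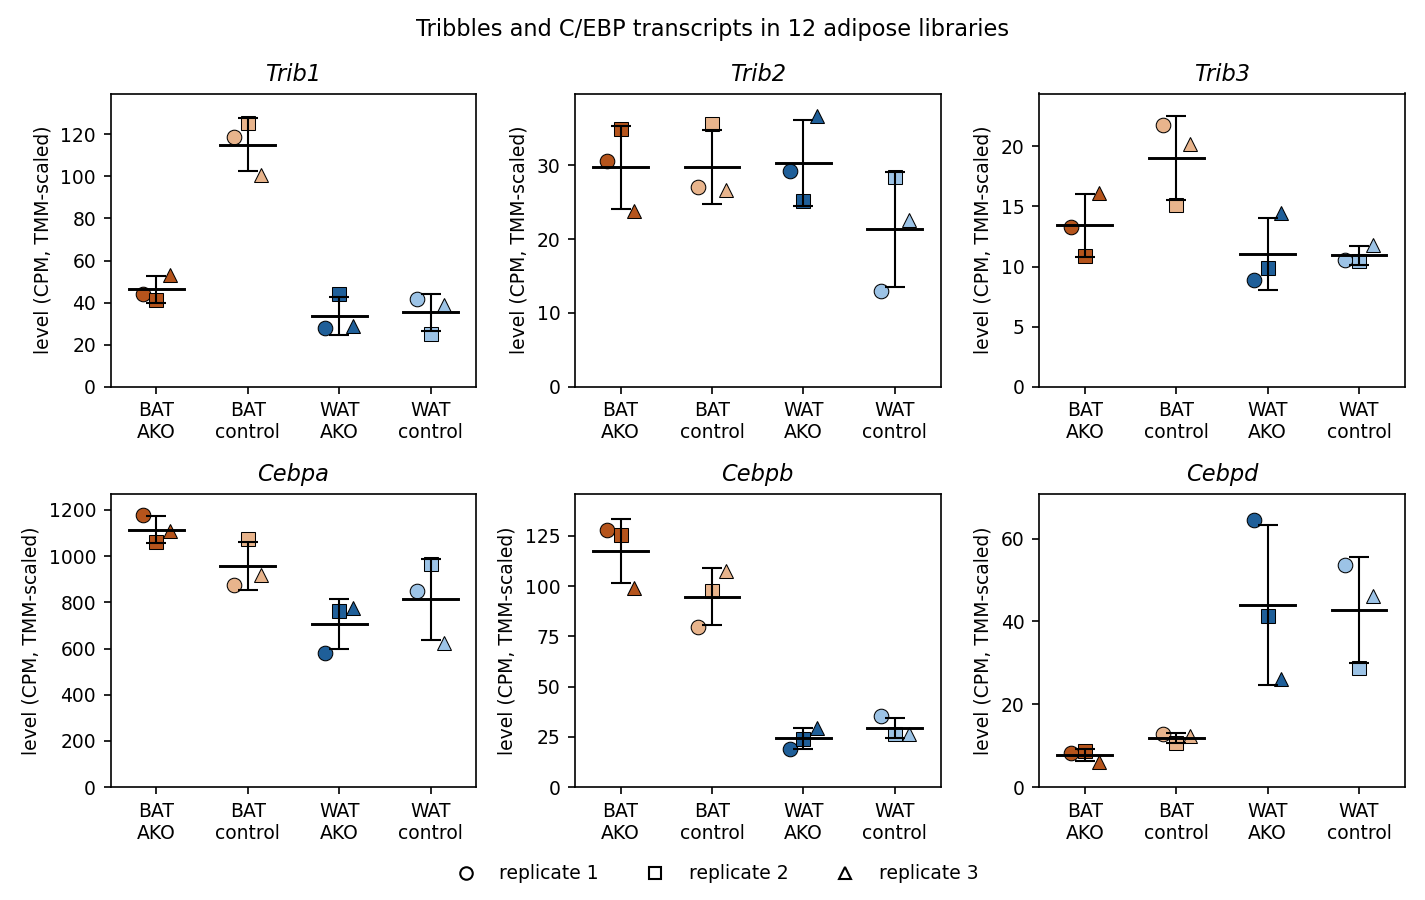
Level of each gene in CPM (TMM scaling over 12 libraries, linear axis from 0) by group, with 1 symbol per library, a bar at the mean and whiskers of 1 SD. Trib1 in BAT controls (100.9 to 125.2 CPM) stands above its 9 other libraries, Cebpb is higher and Cebpd lower in every BAT library than in every WAT library.

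The study compared AKO with control mice in each depot to find transcripts that differ without adipose Mcu. In BAT, Trib1 was lower in all AKO libraries. It measured 43.9, 41.4 and 53.4 CPM in BAT AKO 1, 2 and 3, against 119, 125 and 101 CPM in BAT controls 1, 2 and 3. The highest AKO library thus stood well under the lowest control. Trib1 averaged 46.2 ± 6.29 CPM in BAT AKO and 115 ± 12.7 CPM in BAT controls (SD, n = 3 each). The AKO mean was 40.2% of that in controls, with a log2 fold change of −1.29 (SE 0.122, 95% interval −1.58 to −1.01). The AKO level in BAT lay near the level of WAT libraries, which ran from 25.3 to 43.95 CPM. These are the values that chose the gene. Over all alternatives, leaving out each library among them, the log2 value of Trib1 ran from −1.40 to −1.22. In these bulk samples, fewer cells of a type and less RNA per cell cannot be told apart.

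Trib2 and Trib3, the other family members, did not move as far. Trib2, which like Trib1 directs C/EBPα to COP1, measured 30.5, 34.95 and 23.8 CPM in BAT AKO and 27.0, 35.6 and 26.7 CPM in BAT controls. The groups lay over each other, with a log2 fold change of 0.023 (95% interval −0.40 to 0.44). Trib3, a stress-induced member that binds AKT in other settings, measured 13.3, 10.9 and 16.1 CPM in BAT AKO and 21.8, 15.1 and 20.2 CPM in BAT controls. BAT AKO 3 lay above BAT control 2, so the groups overlapped, and the log2 fold change was −0.48 (95% interval −0.93 to −0.04).

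Among the C/EBP genes in BAT, Cebpd was lower in all AKO libraries while Cebpa and Cebpb overlapped. Cebpd, an early factor that also responds to inflammatory signals, measured 8.30, 8.76 and 6.13 CPM in BAT AKO, against 12.8, 10.6 and 12.4 CPM in BAT controls. Its log2 fold change was −0.60 (SE 0.185, 95% interval −1.04 to −0.17), and from −0.72 to −0.46 over the alternatives. Cebpa, the factor of the mature adipocyte, measured 1179, 1060 and 1107 CPM in BAT AKO and 876, 1075 and 919 CPM in BAT controls. Only BAT control 2 reached into the AKO range, and the log2 fold change was 0.24 (95% interval 0.01 to 0.47). Cebpb, whose product takes part in brown fat gene activation, measured 128, 125 and 99.1 CPM in BAT AKO and 79.7, 97.5 and 107 CPM in BAT controls. BAT AKO 3 lay under BAT control 3, and the log2 fold change was 0.33 (95% interval −0.03 to 0.68).

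In BAT 0.0771% of 14265 genes were past the threshold over all genes, and Trib1 was 1 of them. The groups of Trib1 and Cebpd did not overlap, as for 19.7% of genes. Since this contrast chose the genes, these counts are no test of them and nothing is read from them. Of the 6 log2 fold changes, that of Trib1 among them, 3 were positive and 3 negative. Their median was −0.23, against 0.0096 over all genes tested, and nothing is read from it either.

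**Figure D2:**
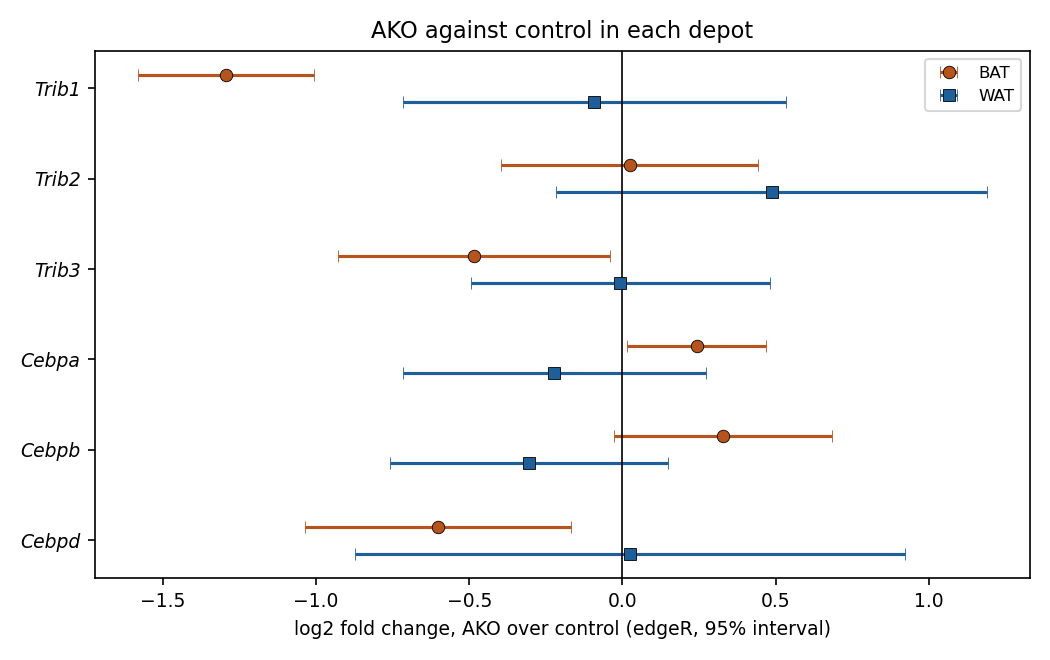
Log2 fold change of AKO over control (edgeR, points, with 95% intervals as bars) for each gene in BAT (circles) and WAT (squares). Trib1 stands at −1.29 in BAT and −0.09 in WAT, and every WAT interval spans 0.

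The summed share of 6 macrophage markers was lower in BAT AKO. The markers took 0.0126% to 0.0175% of counts in BAT AKO and 0.018% to 0.0225% in BAT controls, so the summed level did not overlap. None of the 6 passed the edgeR test (median log2 fold change −0.40), 2 had an unadjusted p under 0.05, DESeq2 called 0, and none was at 0 in any library. Lyz2, the most abundant, averaged 84.0 CPM in BAT AKO and 110 CPM in BAT controls, and its groups alone were apart. Adgre1, which encodes F4/80, averaged 10.3 CPM in BAT AKO and 8.9 CPM in BAT controls, and the other 5 had negative values. The 6 endothelial markers took 0.106% to 0.127% of counts in BAT AKO and 0.124% to 0.144% in BAT controls, so their summed share overlapped. Of these, 5 had negative values and 1 a positive one, and none passed the edgeR test (smallest adjusted p = 0.205). Unadjusted, 3 were under 0.05, and DESeq2 called 1. Groups were apart, with AKO lower, for 2 (Pecam1 and Sox18), against 11.5% of genes. Adipocyte markers took 1.28% to 1.43% in BAT AKO and 1.25% to 1.33% in BAT controls. The part of any of these cell types in the lower Trib1 level was not tested. Muscle markers were highest in BAT AKO 2, and without that library and BAT control 1 the log2 value of Trib1 was −1.22 and that of Cebpd −0.67. In the same setting Trib3 stood at −0.26 and Cebpb at 0.15, each nearer to 0 by over 1.5 times.

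In WAT no member passed the test, where 0.0189% of 15915 genes passed (3 higher and 0 lower). At an unadjusted edgeR p under 0.05, 10.6% of genes lay higher in AKO and 12% lower, and none of the 6 members did either. DESeq2 called 9.79% of genes and 0 of the 6. No member had groups apart, against 30.4% of genes. The median of the 6 log2 fold changes was −0.05, against 0.0049 over all genes tested.

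Trib1 measured 28.1, 43.95 and 28.7 CPM in WAT AKO and 41.6, 25.3 and 39.1 CPM in WAT controls. The groups lay over each other, with WAT AKO 2 the highest and WAT control 2 the lowest library. Its log2 fold change was −0.09 (SE 0.26, edgeR adjusted p = 0.856) with a 95% interval of −0.72 to 0.53. The difference between depots was not tested, because the BAT value chose the gene. Trib2 measured 29.3, 25.2 and 36.6 CPM in WAT AKO and 12.9, 28.4 and 22.6 CPM in WAT controls (log2 fold change 0.49, SE 0.293, edgeR adjusted p = 0.353). WAT control 1 was the lowest and WAT AKO 3 the highest library, and without WAT control 1 the log2 value was 0.22. B lymphocyte markers took 0.0487% to 0.127% of counts in WAT AKO and 0.00234% to 0.0453% in WAT controls. All 6 had positive log2 fold changes (median 2.37), none passed, and Ms4a1 was at 0 in 1 WAT control. WAT AKO 3 held the largest share, and the part of these cells in the level of Trib2 was not tested. Trib3 measured 8.87, 9.87 and 14.5 CPM in WAT AKO and 10.54, 10.43 and 11.8 CPM in WAT controls, with AKO libraries on either side of the controls. Its log2 fold change was −0.0066 (95% interval −0.49 to 0.48, edgeR adjusted p = 0.986).

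Cebpa measured 582, 761 and 777 CPM in WAT AKO and 848, 968 and 624 CPM in WAT controls (log2 fold change −0.22, SE 0.206, edgeR adjusted p = 0.536). WAT control 3 lay within the AKO range. Cebpb measured 19.1, 24.1 and 29.6 CPM in WAT AKO and 35.2, 26.5 and 26.7 CPM in WAT controls (log2 fold change −0.30, SE 0.189, edgeR adjusted p = 0.366). WAT AKO 3 lay above WAT controls 2 and 3. Cebpd measured 64.5, 41.4 and 26.0 CPM in WAT AKO and 53.6, 28.7 and 46.1 CPM in WAT controls. Its coefficient of variation in WAT AKO, 44.0%, was the highest of the 6 genes there, and in WAT controls (29.9%) that of Trib2 was higher (36.7%). The log2 fold change of Cebpd was 0.024 (SE 0.373, 95% interval −0.87 to 0.92, edgeR adjusted p = 0.975). With fold changes this close to 0, those of Trib1, Trib3 and Cebpd took the other sign under some alternatives.

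BAT was compared with WAT within each genotype, to compare the relative RNA level of each gene between depots. Trib1 is not tested here. Cebpb rose and Cebpd fell in BAT relative to WAT in AKO mice and in controls. Cebpb averaged 117 ± 15.8 CPM in BAT AKO and 24.2 ± 5.24 CPM in WAT AKO, a 5.09-fold difference (log2 2.35, SE 0.181, edgeR adjusted p = 3.55e-05). In controls it averaged 94.9 ± 14.0 CPM in BAT and 29.5 ± 4.99 CPM in WAT, a 3.20-fold difference (log2 1.68, SE 0.162, edgeR adjusted p = 0.000298). The lowest BAT library, at 79.7 CPM, held more than 35.2 CPM, the highest of WAT. Cebpd averaged 7.73 ± 1.4 CPM in BAT AKO and 44.0 ± 19.4 CPM in WAT AKO (log2 −2.44, SE 0.337, edgeR adjusted p = 0.000601). In controls it averaged 11.9 ± 1.20 CPM in BAT and 42.8 ± 12.8 CPM in WAT (log2 −1.85, SE 0.235, edgeR adjusted p = 0.00092). Its highest BAT library, at 12.8 CPM, lay under its lowest WAT library, at 26.0 CPM.

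The scaling matters between depots. With library totals in place of TMM factors the median log2 difference of all genes, BAT over WAT, was −0.60 in AKO mice and −0.40 in controls, in place of −0.02 and −0.04. Cebpb and Cebpd kept their calls and signs on this scale, with log2 values of 1.77 and −3.02 in AKO mice and 1.33 and −2.19 in controls. The genes that overlap them on the other strand measured −0.89 (Tmem189) and −0.33 (Spidr) in AKO mice and −0.84 and 0.013 in controls.

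Cebpa rose in BAT relative to WAT in AKO mice, with 1115 ± 60.1 CPM in BAT and 707 ± 108 CPM in WAT (log2 0.73, SE 0.141, edgeR adjusted p = 0.00314). With library totals the call was lost (log2 0.15, adjusted p = 0.303). In controls Cebpa measured 957 ± 105 CPM in BAT and 813 ± 175 CPM in WAT, a difference that did not pass (log2 0.23, SE 0.19, edgeR adjusted p = 0.356) and was −0.14 with library totals. Trib3 rose in BAT relative to WAT in controls, with 19.0 ± 3.5 CPM in BAT and 10.9 ± 0.775 CPM in WAT (log2 0.79, SE 0.167, edgeR adjusted p = 0.00756). That call was lost with library totals (log2 0.43, adjusted p = 0.0732) and without the library richest in muscle transcripts of each group (log2 0.69, adjusted p = 0.0807). In AKO mice Trib3 measured 13.4 ± 2.60 CPM in BAT and 11.1 ± 2.98 CPM in WAT (log2 0.35, SE 0.223, edgeR adjusted p = 0.21). It was called when WAT AKO 3 was left out (log2 0.59, adjusted p = 0.0429). Trib2 did not pass in AKO mice (29.8 ± 5.62 CPM in BAT and 30.4 ± 5.81 CPM in WAT, log2 0.045, edgeR adjusted p = 0.842) or in controls (29.8 ± 5.06 CPM in BAT and 21.3 ± 7.82 CPM in WAT, log2 0.47, edgeR adjusted p = 0.208). With library totals Trib2 took the other sign and passed in AKO mice (log2 −0.54, adjusted p = 0.044), and stood at 0.096 in controls.

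Trib1, described only, was 1.44-fold higher in BAT than in WAT of AKO mice (log2 0.53, 95% interval 0.06 to 1.00) and 3.24-fold higher in controls (log2 1.70, 95% interval 1.22 to 2.17). Its BAT and WAT libraries overlapped in AKO mice and did not overlap in controls, where the groups were apart for 67.5% and 61.4% of all genes. With library totals the AKO value was −0.03 and the control value 1.35. Without the library richest in muscle transcripts of each group the AKO value was 0.86. Whether the depot difference of any gene depends on genotype was not tested.

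Of the 5 genes tested between depots, 3 passed in AKO mice (Cebpa, Cebpb and Cebpd) and 3 in controls (Trib3, Cebpb and Cebpd). Over all genes 59.3% passed in AKO mice (28.8% higher and 30.5% lower in BAT) and 50.1% in controls (24.4% higher and 25.7% lower), so a count of 3 in 5 is near the background. Macrophage markers were lower in BAT, at 0.0126% to 0.0175% of counts in BAT AKO against 0.0853% to 0.109% in WAT AKO, and 0.018% to 0.0225% in BAT controls against 0.0954% to 0.124% in WAT controls. All 6 passed in each genotype, and their part in the depot difference of Cebpd was not tested.

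**Figure D3:**
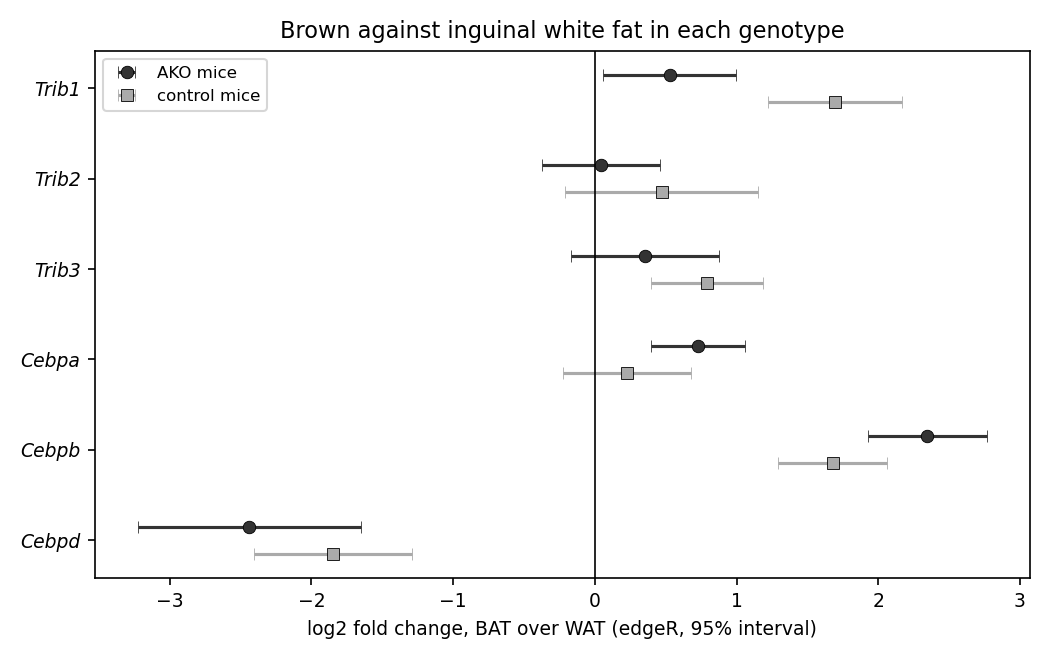
Log2 fold change of BAT over WAT (edgeR, points, with 95% intervals as bars) in AKO mice (circles) and control mice (squares). Cebpb lies at 2.35 and 1.68 and Cebpd at −2.44 and −1.85, while Trib1 lies at 0.53 in AKO mice and 1.70 in controls.

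Shares within a family do not depend on how libraries are scaled. Of the summed FPKM of the 3 C/EBP genes, Cebpb made up 15.5% ± 1.81 in BAT AKO against 5.41% ± 0.606 in WAT AKO, and 14.7% ± 1.86 in BAT controls against 5.88% ± 1.21 in WAT controls (SD, n = 3 each). Cebpa made up 84.1% ± 1.88 in BAT AKO against 90.4% ± 2.03 in WAT AKO, and 84.5% ± 1.89 in BAT controls against 90.6% ± 2.59 in WAT controls. Cebpd made up 0.41% ± 0.072 in BAT AKO against 4.18% ± 2.42 in WAT AKO, and 0.752% ± 0.146 in BAT controls against 3.51% ± 1.39 in WAT controls. Each of these 6 depot differences had p = 0.1 in an exact two-sided permutation test, the smallest p that 3 against 3 libraries allow, so none could pass 0.05. In WAT the shares of the 3 genes lay within 0.662 percentage points between AKO and control (exact two-sided permutation p = 0.8 or more, n = 3 each). In all, 9 such share tests were made, and adjustment for their number could not bring any below the threshold.

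Of the 3 Tribbles genes, Trib1 made up 35.5% to 41.8% of the summed FPKM in BAT AKO and 53% to 58.9% in BAT controls, as a description. Trib2 made up 24.5% to 39.4% in BAT AKO and 16.7% to 22% in BAT controls, and Trib3 25.1% to 33.8% and 19% to 28.5%. In WAT the share of Trib1 was 24.8% to 42.5% in AKO and 27.9% to 47.9% in controls, so the groups lay over each other.

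**Figure D4:**
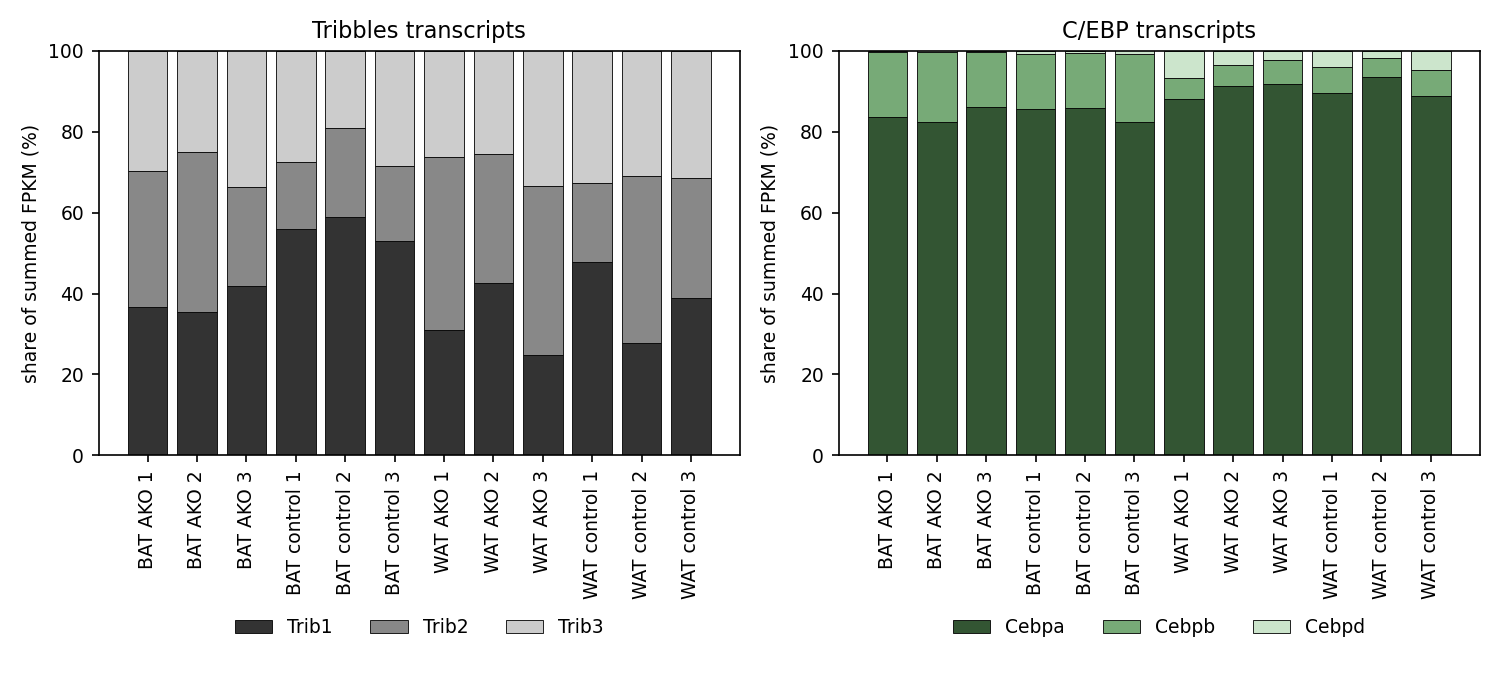
Share of each gene in the summed FPKM of its family (percent, stacked bars from 0 to 100) in each library, Tribbles genes on the left and C/EBP genes on the right. Trib1 takes 35.5% to 41.8% in BAT AKO and 53% to 58.9% in BAT controls, and Cebpb takes 13.5% or more in each BAT library and 6.65% or less in each WAT library.

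Genes that work with these proteins were looked at through 7 lists. As the background for their counts, 7% of all genes were higher and 6.62% lower in BAT AKO at an unadjusted p under 0.05, and 10.6% higher and 12% lower in WAT AKO. DESeq2 called 2.16% of genes in BAT and 9.79% in WAT. COP1 (Cop1) and the subunits of its CUL4 ligase, Det1, Dda1, Ddb1, Cul4a, Cul4b and Rbx1, are the machinery that Tribbles proteins recruit. None of the 7 passed between AKO and control in BAT (median log2 fold change 0.077) or in WAT (median −0.13), nor did any at an unadjusted p under 0.05 or with DESeq2. The smallest p-values in BAT belonged to Cul4a, the cullin scaffold (log2 0.16, edgeR adjusted p = 0.441), and Dda1 (log2 −0.14, edgeR adjusted p = 0.475), and in WAT to Det1 (log2 0.40, edgeR adjusted p = 0.274) and Dda1 (log2 −0.17, edgeR adjusted p = 0.301). Kinases and an enzyme bound by Tribbles proteins, which are 4 MAP kinase kinases, Akt1, Akt2 and the acetyl-CoA carboxylase Acaca, did not pass in either depot with edgeR or DESeq2 (medians 0.0092 in BAT and −0.09 in WAT), and 1 in BAT and 0 in WAT had an unadjusted p under 0.05. In BAT, Akt1 measured 141 ± 2.37 CPM in AKO against 173 ± 22.1 CPM in controls (log2 −0.27, edgeR adjusted p = 0.357), and Acaca 1158 ± 266 CPM against 1548 ± 378 CPM (log2 −0.40, edgeR adjusted p = 0.453). In WAT, Akt2 measured −0.285 (edgeR adjusted p = 0.407) and Map2k7 0.12 (edgeR adjusted p = 0.443) on the log2 scale.

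Other bZIP factors pair with C/EBPs. Of Cebpg, Ddit3 (CHOP), Atf4 and Atf5, none passed between AKO and control in BAT (median log2 fold change −0.16) or WAT (median −0.26), and Cebpe was too low to test. Unadjusted, 1 in BAT and 2 in WAT were under 0.05, and DESeq2 called 1 in each depot. Atf5 had the smallest p in each depot. It measured 175 ± 8.58 CPM in BAT AKO against 254 ± 41.8 CPM in BAT controls (log2 −0.52, edgeR adjusted p = 0.262), and 105 ± 5.21 CPM in WAT AKO against 142 ± 6.22 CPM in WAT controls (log2 −0.46, edgeR adjusted p = 0.0945). Its groups did not overlap in either depot, as for 19.7% of genes in BAT and 30.4% in WAT. Atf4, an activator of Trib3, measured −0.30 in BAT (edgeR adjusted p = 0.525), and Ddit3 −0.40 in WAT (edgeR adjusted p = 0.135). The list of ATF4 stress response targets, set beside Trib3, holds 8 genes. None passed in BAT (7 tested, median 0.02) or in WAT (8 tested, median 0.12), with 1 and 2 under 0.05 unadjusted and 0 and 2 called by DESeq2. Vldlr, a lipoprotein receptor, measured 0.33 in BAT (edgeR adjusted p = 0.274) and Sesn2 −0.40 (edgeR adjusted p = 0.66), and in WAT Atf3 measured −1.55 (edgeR adjusted p = 0.0846) and Vldlr −0.82 (edgeR adjusted p = 0.164).

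Factors that induce C/EBP genes during fat cell formation did not pass in BAT (9 tested, median 0.038) or in WAT (10 tested, median −0.02). Unadjusted, 2 in each depot were under 0.05, and DESeq2 called 2 in BAT and 1 in WAT. In BAT the largest evidence was for Nr3c1, the glucocorticoid receptor, with 101 ± 15.4 CPM in AKO against 59.5 ± 9.41 CPM in controls (log2 0.78, SE 0.145, edgeR adjusted p = 0.215), and for Stat3, which activates Cebpd in cytokine signalling, with 101 ± 8 CPM in AKO against 153 ± 21.5 CPM in controls (log2 −0.57, SE 0.13, edgeR adjusted p = 0.243). Neither had overlapping groups, as for 19.7% of genes. In WAT, Klf4, an activator of Cebpb, measured 57.2 ± 6.88 CPM in AKO against 87.8 ± 14.9 CPM in controls (log2 −0.64, SE 0.161, edgeR adjusted p = 0.12), and Creb1, which binds the Cebpb promoter, 36.5 ± 1.51 CPM against 27.1 ± 4.93 CPM (log2 0.41, SE 0.142, edgeR adjusted p = 0.172).

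Downstream genes were listed in 2 groups. Of 12 adipocyte genes that C/EBPα is known to activate, none passed in BAT, where 10 had positive values and the median was 0.18, or in WAT, where 6 were positive and the median was −0.06. Unadjusted, 2 in each depot were under 0.05, and DESeq2 called 1 in BAT and 2 in WAT. Agpat2, an acyltransferase of glycerolipid synthesis, had the smallest p in each depot and opposite signs. It measured 1250 ± 120 CPM in BAT AKO against 925.5 ± 132 CPM in BAT controls (log2 0.45, SE 0.119, edgeR adjusted p = 0.264), and 228 ± 30.0 CPM in WAT AKO against 534 ± 73.4 CPM in WAT controls (log2 −1.25, SE 0.16, edgeR adjusted p = 0.067). Its groups did not overlap in either depot, as for 19.7% of genes in BAT and 30.4% in WAT. The difference between depots was not tested. Plin1, which coats the lipid droplet, measured 0.24 in BAT (edgeR adjusted p = 0.326), and leptin (Lep) −1.05 in WAT (edgeR adjusted p = 0.159).

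Acute phase and inflammatory genes are targets of C/EBPβ and C/EBPδ. Of 12 listed, Il6, Ptgs2 and Csf3 were too low to test. In BAT the 9 tested had negative values, with a median log2 fold change of −1.52 against 0.0096 over all genes, and none passed with edgeR. Unadjusted, 6 of 9 were under 0.05, where 6.62% of all genes were lower and 7% higher, and DESeq2 called 3, against 2.16% of genes. A gene that is low in AKO enters the test through its control level. The list was also chosen with earlier results of these data known, so its counts in either depot are a description. Groups were apart, with AKO lower, for 5 of the 9, against 11.5% of genes. Socs3, a feedback inhibitor of cytokine signalling, measured 3.91, 5.37 and 3.53 CPM in BAT AKO, against 9.70, 12.1 and 15.7 CPM in BAT controls (log2 −1.52, SE 0.255, edgeR adjusted p = 0.194). Ccl2, a monocyte chemokine, had 17, 30 and 16 counts in BAT AKO against 31, 317 and 261 counts in BAT controls (log2 −3.25, SE 0.795, edgeR adjusted p = 0.255). BAT control 1 thus came close to the AKO libraries. Lcn2 (2.19 to 31.7 CPM), Ptx3 (2.24 to 49.3 CPM) and Il1b (0.597 to 5.22 CPM) also varied widely among BAT controls. In WAT 6 of 9 were negative, the median was −0.82 and none passed with edgeR, with 5 under 0.05 unadjusted and 3 called by DESeq2. Of all genes in WAT, 12% were lower and 10.6% higher unadjusted, and DESeq2 called 9.79%. Haptoglobin (Hp) measured 1674 ± 377 CPM in WAT AKO against 4196 ± 1430 CPM in WAT controls (log2 −1.34, SE 0.316, edgeR adjusted p = 0.111), and Il1b 0.776 ± 0.246 CPM against 0.265 ± 0.0821 CPM (log2 1.5, SE 0.421, edgeR adjusted p = 0.131). Il1b had only 50 counts in all in WAT AKO and 16 in WAT controls. It lay near the floor and entered the test through its AKO level. Of the macrophage markers, whose BAT values are given above, 5 of 6 had negative values in WAT too (median −0.79). Lyz2 averaged 478 CPM in WAT AKO and 420 CPM in WAT controls. The summed share overlapped, at 0.0853% to 0.109% in WAT AKO and 0.0954% to 0.124% in WAT controls. Groups were apart, with AKO lower, for 3 markers (Adgre1, Mrc1 and Cd68), against 30.4% of genes in either direction. None passed with edgeR, with 4 under 0.05 unadjusted and 3 called by DESeq2. The part of the macrophage markers in the values of the inflammatory genes was not tested in either depot.

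**Figure D5:**
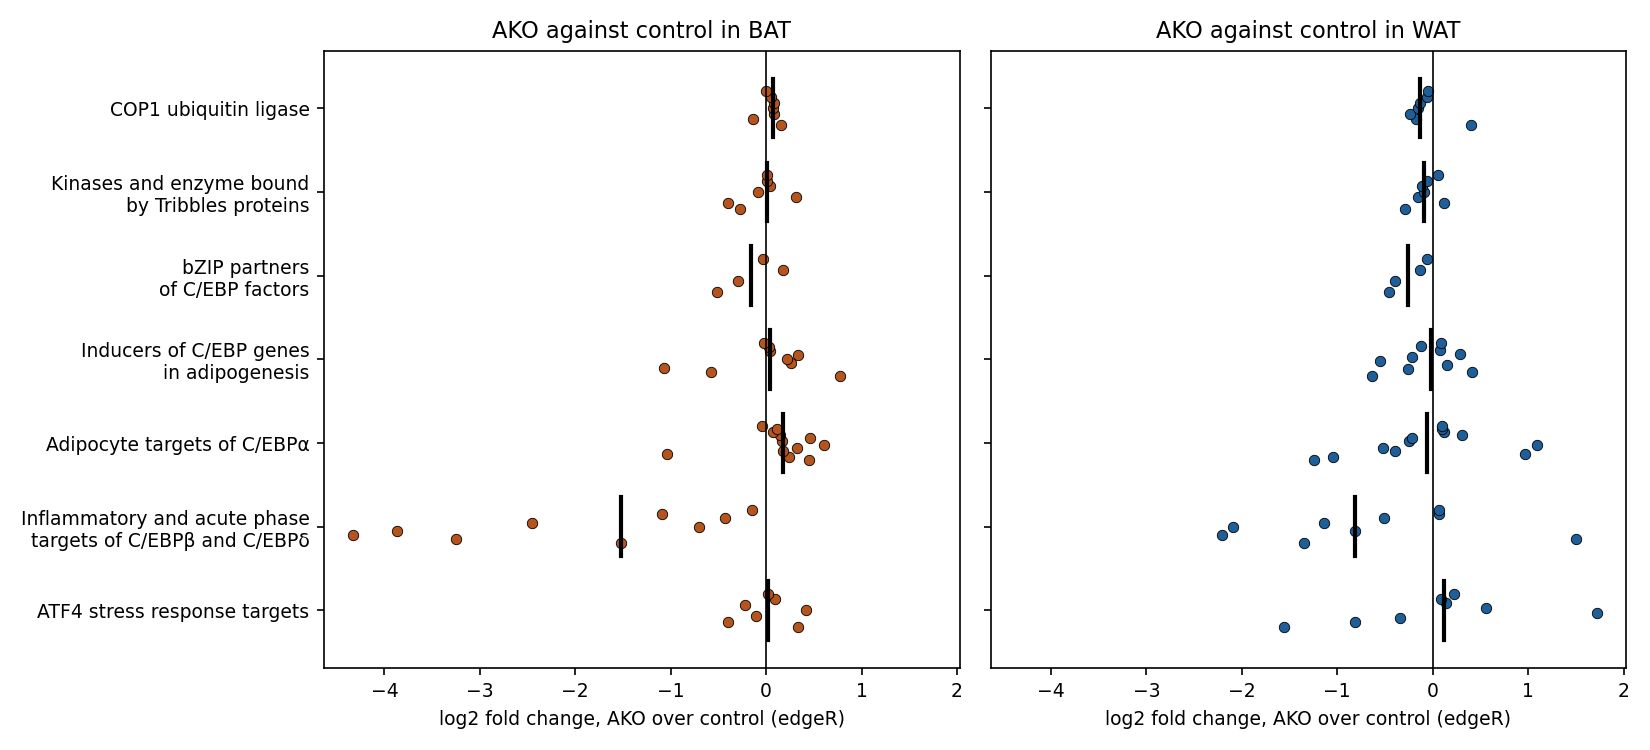
Log2 fold change of AKO over control (edgeR) for each tested gene of 7 lists, in BAT on the left and WAT on the right, on a common axis, with a black bar at the list's median. The inflammatory and acute phase targets lie below 0 in BAT for all 9 genes (median −1.52), while the medians of the other lists lie between −0.26 and 0.18 in the 2 depots.

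Between depots many genes of these lists passed, as 59.3% of all genes did in AKO mice and 50.1% in controls. With library totals 13.2% of all genes were called higher and 55.9% lower in BAT of AKO mice, and 14% higher and 41.6% lower in controls, so counts on that scale lean to lower for genes at large. Of the bZIP partners 3 of 4 rose in BAT relative to WAT in AKO mice, and 4 of 4 in controls. With library totals 1 of 4 passed in AKO mice and 2 of 4 in controls. Ddit3 had 49.7 ± 4.84 CPM in BAT AKO and 19.0 ± 1.86 CPM in WAT AKO (log2 1.46, edgeR adjusted p = 3.21e-05), and 44.6 ± 8.09 CPM in BAT controls and 24.7 ± 1.90 CPM in WAT controls (log2 0.84, edgeR adjusted p = 0.0035). It kept its call with library totals (log2 0.88 and 0.48). Atf5 rose by 0.80 and 0.83 on the log2 scale and Cebpg, a C/EBP without an activation domain, by 0.68 and 0.54. Atf4 rose by 0.56 in controls. With library totals Atf5 passed in controls alone, and Cebpg and Atf4 did not pass.

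Of the inducers, Pparg, the partner of C/EBPα, rose in BAT with log2 values of 1.62 in AKO mice and 1.28 in controls (edgeR adjusted p = 6.78e-05 and 0.000227) and kept both calls with library totals. Stat5a rose by 0.94 and 0.72, calls that were lost with library totals. Creb1 and Egr2, also known as Krox20, fell in AKO mice (log2 −0.71 and −1.93), and Nr3c1 and Klf4 fell in controls (log2 −0.66 and −0.47). In all 2 of 10 rose and 3 fell in AKO mice, and 2 of 9 rose and 2 fell in controls. With library totals 1 rose in each genotype, and 6 fell in AKO mice and 5 in controls.

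The adipocyte targets of C/EBPα moved both ways, 5 up and 5 down of 12 in BAT of AKO mice and 3 up and 5 down in BAT of controls (3 and 7, and 2 and 7, with library totals). Agpat2 rose in AKO mice (log2 2.53, edgeR adjusted p = 1.23e-05). The secreted products leptin (Lep) and resistin (Retn) fell, with log2 values of −3.53 and −3.87 in AKO mice and −3.59 and −4.404 in controls. Adipsin (Cfd) was among the 4 smallest p-values in AKO mice (log2 −2.52), and adiponectin (Adipoq) and lipoprotein lipase (Lpl) in controls (log2 −1.45 and −1.49). All of these calls held with library totals.

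Of the inflammatory and acute phase targets 5 of 9 fell in BAT of AKO mice and 3 of 8 in BAT of controls, and with library totals 7 and 3. Saa3, an acute phase protein made in fat, measured 0.636 ± 0.262 CPM in BAT AKO against 6.79 ± 4.72 CPM in WAT AKO (log2 −3.33, edgeR adjusted p = 0.0022) and 1.39 ± 0.997 CPM in BAT controls against 31.1 ± 17.4 CPM in WAT controls (log2 −4.48, edgeR adjusted p = 0.00206). Orm1 and Hp, further acute phase genes, fell, with log2 values of −1.38 and −0.87 in AKO mice and −1.498 and −1.56 in controls. Socs3 fell by 2.07 in AKO mice (edgeR adjusted p = 0.00018).

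Of the COP1 ligase genes 5 rose (among them Cul4a by 0.64, Cul4b by 0.41 and Cop1 by 0.40) and Dda1 fell by 0.28 on the log2 scale in BAT of AKO mice. In controls Det1 (0.78) and Cul4a (0.29) rose and Dda1 fell by 0.35. With library totals no COP1 ligase gene rose, and 3 fell in AKO mice and 2 in controls. Dda1 fell on both scales. Of the genes that rose, Cop1, Cul4b, Rbx1 and Det1 in AKO mice (log2 −0.18, −0.17, −0.26 and −0.09) and Cul4a in controls (log2 −0.07) took the other sign with library totals, while Cul4a in AKO mice (0.07) and Det1 in controls (0.42) stayed positive and lost their calls. Of the bound kinases and enzyme, 5 of 7 rose in AKO mice and 4 of 7 in controls. Acaca, the first enzyme of fatty acid synthesis, rose by 2.46 and 2.88, and Akt2 by 1.24 in AKO mice. Both kept those calls with library totals. Map2k2 (0.64 and 0.63), Akt1 (0.45 and 0.58) and Map2k7 in controls (0.35) did not.

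Of the ATF4 targets 2 of 8 rose and 4 fell in BAT of AKO mice, and 1 of 7 rose and 2 fell in controls. Psat1, of serine synthesis, fell in both genotypes (log2 −3.18 and −3.35). Slc7a11, the cystine transporter, and Sesn2 fell in AKO mice (log2 −5.43 and −0.84), and Chac1 fell in controls (log2 −2.20). Slc7a11 had 3 counts in all in BAT AKO and 230 in WAT AKO, and was too low to test in controls. It thus entered the test through its WAT level, and the size of its fall is not well measured so near the floor. Vldlr rose by 1.07 in AKO mice and Asns by 0.66 in controls, and these calls were lost with library totals, where no ATF4 target rose and 5 fell in each genotype.

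Genes with the most similar pattern were found for each member by the root mean square difference between centred log2 CPM profiles over the 12 libraries, among 11920 named protein-coding genes. A small value means a like pattern, and nothing about function follows from it. Trib1 was closest to Stk36, Slc19a1 and Hist1h4h, at 0.339, 0.367 and 0.378 log2 units, against a median of 0.836 over all candidates. Trib2 was closest to Phf1, Wdyhv1 and Znrd1 (0.191 to 0.199, median 0.536), and Trib3 to Pgap3, Stard5 and Wars (0.164 to 0.186, median 0.524). Cebpa was closest to Plin1, the lipid droplet coat gene, at 0.107, and then to Pmf1 and Trappc1 (0.128 and 0.133, median 0.477). Cebpb was closest to Plekhh3, Ndufb3 and Usmg5, each at 0.218 (median 1.08), and Ndufb3 and Usmg5 encode subunits of respiratory complex I and ATP synthase. Cebpd was closest to Dapk1, Car5b and Endou (0.307 to 0.313, median 1.16). For Cebpb and Cebpd the measure is governed by the difference between depots, which spans the 6 BAT and 6 WAT libraries. The profile of Trib1 holds the BAT values that chose the gene, so its closest genes are a description. Stk36 averaged only 3.02 CPM.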

How the data were processed

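RNA with poly(A) tails from inguinal and brown fat was sequenced in 12 libraries. The authors deposited raw counts, in whole reads per Ensembl gene. Bowtie2 2.2.3, HISAT2 2.1.0, HTSeq 0.6.0 and build mm10 were used, per the submitters' processing notes, with no roles or strand setting given. The deposited FPKM are the same counts rescaled by gene and library total (largest relative spread 1.47e-08), so they hold no further measurement. Symbols came from GENCODE M21 and matched 52403 of 52550 IDs.

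The test was that of edgeR 4.0.16, run in R 4.3.3 (quasi-likelihood test, TMM, filterByExpr with a minimum count of 10 and total of 15, Benjamini-Hochberg at 0.05 over all genes tested), on the 6 libraries of each comparison. The fit was tested on simulated data. All 6 members passed the filter in each comparison. Between replicates chi-square per degree of freedom was 16.5 to 83.4, so none repeats another. Precision is limited by 3 libraries per group, and counts of reads without molecular identifiers carry more than counting error.

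Members and lists were chosen with earlier results of these data known. From each list up to 4 called genes with the smallest p are named, or the 2 with the smallest p where none was called. Deviations of same-numbered BAT and WAT libraries correlated at 0.136 to 0.676 in AKO mice and at 0.238 to 0.517 in controls. Differently numbered libraries stayed at or under 0.074 in controls, but in AKO mice BAT 1 with WAT 3 reached 0.431. WAT AKO 2 with WAT control 1, of different genotypes, reached 0.653. Such correlations therefore cannot show which libraries share an animal. The values printed come from fits and tests without pairing, and the block was an alternative. Same-numbered AKO and control libraries had correlations of −0.615 to 0.219. Alternatives were RLE factors, no filter, DESeq2 1.42.0, the replicate number as a block, all 12 libraries in 1 fit, each library left out, the libraries richest in muscle left out and, added after seeing the data, library totals without TMM.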

Additional observations from a re-analysis of the deposited data

How the results depend on the processing

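Among the log2 fold changes of single members under each alternative, 283 kept direction and call or, where described only, stayed within the spread of replicates. Of the others 22 tested values took the other sign (Trib2 in AKO mice with library totals, below, was also called). Another 3 kept their sign and lost a call, 1 kept its sign and gained one and 3 described values moved further than that spread. The cause was not tested. Described values outside the 22 also changed sign. Trib2 between AKO and control in BAT ran from −0.20 to 0.17 over the alternatives, and Trib1 between depots in AKO mice was −0.03 with library totals. In WAT, genes called between AKO and control numbered 3, and 277 with no filter, 1618 with DESeq2, 0 with the replicate block, 1030 with all 12 libraries in 1 fit, 0 without the muscle-rich libraries and 1 to 1649 without each library in turn, the highest without WAT control 2. No setting called a member there. In BAT, 11 genes were called, and 33 with no filter, 265 with DESeq2, 1 with the replicate block, 2 without the muscle-rich libraries and 0 to 95 without each library in turn. The count of members past the threshold in BAT, from which nothing is read because that contrast chose them, was 1, and 0 with the replicate block, all 12 libraries in 1 fit or without the muscle-rich libraries, and 0 to 1 without each library. Between depots 9291 genes were called in AKO mice, and 7524 in controls (4763 without the muscle-rich libraries). Of the tested members 3 were called in each genotype, and 3 to 4 in AKO mice without each library in turn.

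Values that took the other sign in WAT were, for Trib1, 0.042 with library totals and −0.35 to 0.035 without each library in turn (above 0 without WAT control 1, AKO 1 or AKO 3). For Trib3 they were 0.0016 with RLE factors, 0.018 with 12 libraries, 0.14 with library totals, 0.024 without the muscle-rich libraries and −0.245 to 0.12 without each library (above 0 without WAT control 3, AKO 1 or AKO 2). For Cebpd they were −0.00079 with no filter, −0.023 with the replicate block and −0.37 to 0.28 without each library (below 0 without WAT AKO 1 or control 2). Between depots in AKO mice, Trib2 took −0.029 with 12 libraries, −0.54 with library totals (adjusted p = 0.044), −0.19 without the muscle-rich libraries and −0.075 to 0.20 without each library (below 0 without WAT AKO 2 or BAT AKO 2). Trib3 took −0.23 with library totals in AKO mice, and Cebpa −0.14 in controls. With the replicate block no tested member changed its call between depots; for Cebpb the blocked value was 2.36 in AKO mice and 1.68 in controls.

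The lowest count of a member was 85 (Cebpd in BAT AKO 3). At counts this low counting error adds to the spread between 3 libraries, and its part was not measured.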
